A study of Mus musculus with 32 samples.

Results

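R1 embryonic stem cells were compared with mouse embryonic fibroblasts (MEF) in bulk RNA sequencing libraries, over every gene of a table that gives TPM, the share of transcripts scaled to the same total in each library. The comparison rests on 4 of the 32 libraries of the series, 2 of R1 and 2 of MEF, and covers the 55401 genes listed, of which 17414 were tested. The series follows chemical reprogramming of mouse fibroblasts to induced pluripotent cells with the RXR agonist CD3254, with Rxra overexpression or with knockdown of the RNA exosome gene Exosc3; it also holds the cell types at either end, MEF and R1. R1 is an established mouse embryonic stem (ES) cell line; its libraries are labelled as mouse ESC from the mouse blastocyst, with no treatment, and its culture medium and any feeder cells are not stated in the labels. The MEF libraries come from OG2X129 cells, which the growth protocol keeps in DMEM with fetal bovine serum; OG2 is known as a mouse line with a green fluorescent reporter driven by Pou5f1 regulatory sequence. Their labels also carry the genotype WT shRNA and the treatment ciPSC reprogramming (chemical induction of pluripotency), so whether these cells had met a hairpin vector or reprogramming medium cannot be told from the labels. The age of the embryos, the number of embryos pooled and the passage number are not given either. Nothing says that replicates are separate cultures, so p-values measure only the spread between libraries, which may be technical.

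Pluripotent cells of the blastocyst are held in a self-renewing state by a small set of transcription factors, with Pou5f1 (Oct4), Sox2 and Nanog at the core and Esrrb, Klf2, Klf4, Tfcp2l1 and Zfp42 around it, under the cytokine LIF. Embryonic fibroblasts are mesenchymal cells that build collagen-rich matrix, pull on it through actin stress fibres and answer to TGF-beta, PDGF and interferon. Reprogramming from the fibroblast to the pluripotent state is known to involve the gain of epithelial junctions, the loss of the mesenchymal programme, a rebuilt chromatin machinery and a short cell cycle.

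The labels matched the markers of both cell types. The 10 ES cell markers summed to 7040.0 and 7295 TPM in the R1 libraries and to 0.491 and 0.700 TPM in the MEF libraries, and the 12 fibroblast markers summed to 20763 and 19893 TPM in MEF and 96.8 and 101 TPM in R1. TPM values sum to the same total in each library and keep no record of sequencing depth, so depth is unknown. Between 14322 and 14778 genes stood at 1 TPM or more in each of the 4 libraries. Mitochondrial genes took 9.50% and 7.46% of TPM in MEF and 13.4% and 11.9% in R1. Pearson correlations of log2(TPM + 1) across genes, which are not independent replicates, were 0.987 between the MEF libraries and 0.986 between the R1 libraries, and 0.687 to 0.696 between a MEF and an R1 library.

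The cell types differed over most of the transcriptome. On the log2(TPM + 1) scale, which understates the change of low genes, limma called 6304 genes higher in R1 (36.2% of those tested) and 5726 lower (32.9%) at a Benjamini-Hochberg adjusted p under 0.05, and 5384 were not called. All 12030 called genes (69.1%) had R1 and MEF libraries that did not overlap. With a change of at least 2 on the log2 scale as well, 1626 genes were higher (9.34%) and 2046 lower (11.7%). The median of the called changes was 1.31 upward and -1.55 downward, and the median over all genes tested was 0.11, or 0.01 over the 14017 genes above 0 in all 4 libraries. With so much called, the count of a gene list is read against these 36.2% higher and 32.9% lower. Genes were tested if they stood at 1 TPM or more in at least 2 of the 8 libraries of the table. A gene at 0 in both MEF libraries could thus not be called lower, nor a gene at 0 in both R1 libraries higher. Counts of lists rich in such genes are a description. Values are given as TPM in MEF replicates 1 and 2 against TPM in R1 replicates 1 and 2, and a log2 change as R1 minus MEF with its SE (n = 2 libraries per cell type); where a gene is called higher or lower, its MEF and R1 libraries do not overlap.

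**Figure D1:**
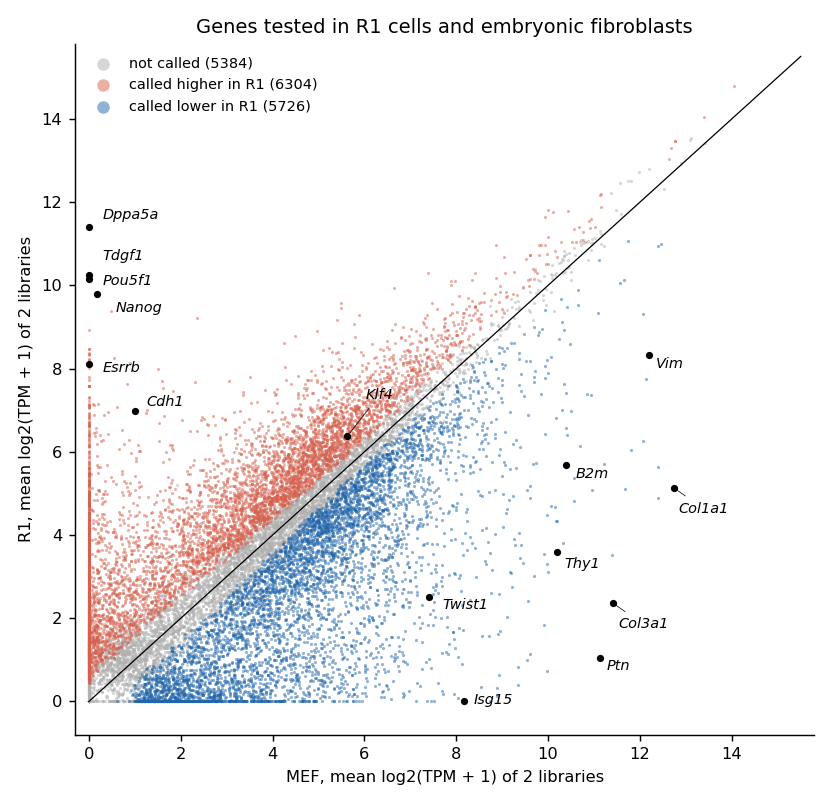
Each point is 1 of the 17414 genes tested, with the mean log2(TPM + 1) of the 2 MEF libraries on the x axis and of the 2 R1 libraries on the y axis, coloured by the limma call, and a line of equal level. Pou5f1, Tdgf1 and Dppa5a sit on the y axis at 0 in MEF, while Col3a1, Ptn and Isg15 lie far to the right of the line.

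The 10 genes with the largest rise in R1 were Dppa5a, Tdgf1, Pou5f1, Nanog, Zfp42, Upp1, Tdh, Utf1, Fbxo15 and Tdgf1-ps1, most of them known from ES cells. Dppa5a, an RNA-binding protein of ES cells, was listed at 0 and 0 TPM in MEF and 2706 and 2709 TPM in R1, Tdgf1, the co-receptor of Nodal, at 0 and 0 against 1272 and 1162 TPM, and Pou5f1 at 0 and 0 against 1087 and 1199 TPM. A gene at 0 in both libraries of a group has no fold, and whether its reads were assigned elsewhere was not tested. Upp1, a uridine phosphorylase, went from 0.949 and 0 to 622 and 713 TPM. Tdgf1-ps1, a pseudogene near identical to Tdgf1, stood at 356 and 294 TPM in R1, and how reads were shared between the copies is uncertain. The 10 genes with the largest fall encode secreted or matrix proteins. Ptn, the growth factor pleiotrophin, went from 2157 and 2334 TPM to 0.936 and 1.2 TPM (-10.09 ± 0.17 SE on the log2 scale, adjusted p = 4.46e-08 by limma), and the small proteoglycan Aspn from 1042 and 968 to 0.913 and 0.462 TPM (-9.23 ± 0.21). The others were Col3a1, Mfap4, Igfbp5, Ccn3, Dcn, Thbs2, Fbln5 and Col6a2, with log2 changes from -9.06 for Col3a1 to -8.45 for Col6a2.

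**Figure D2:**
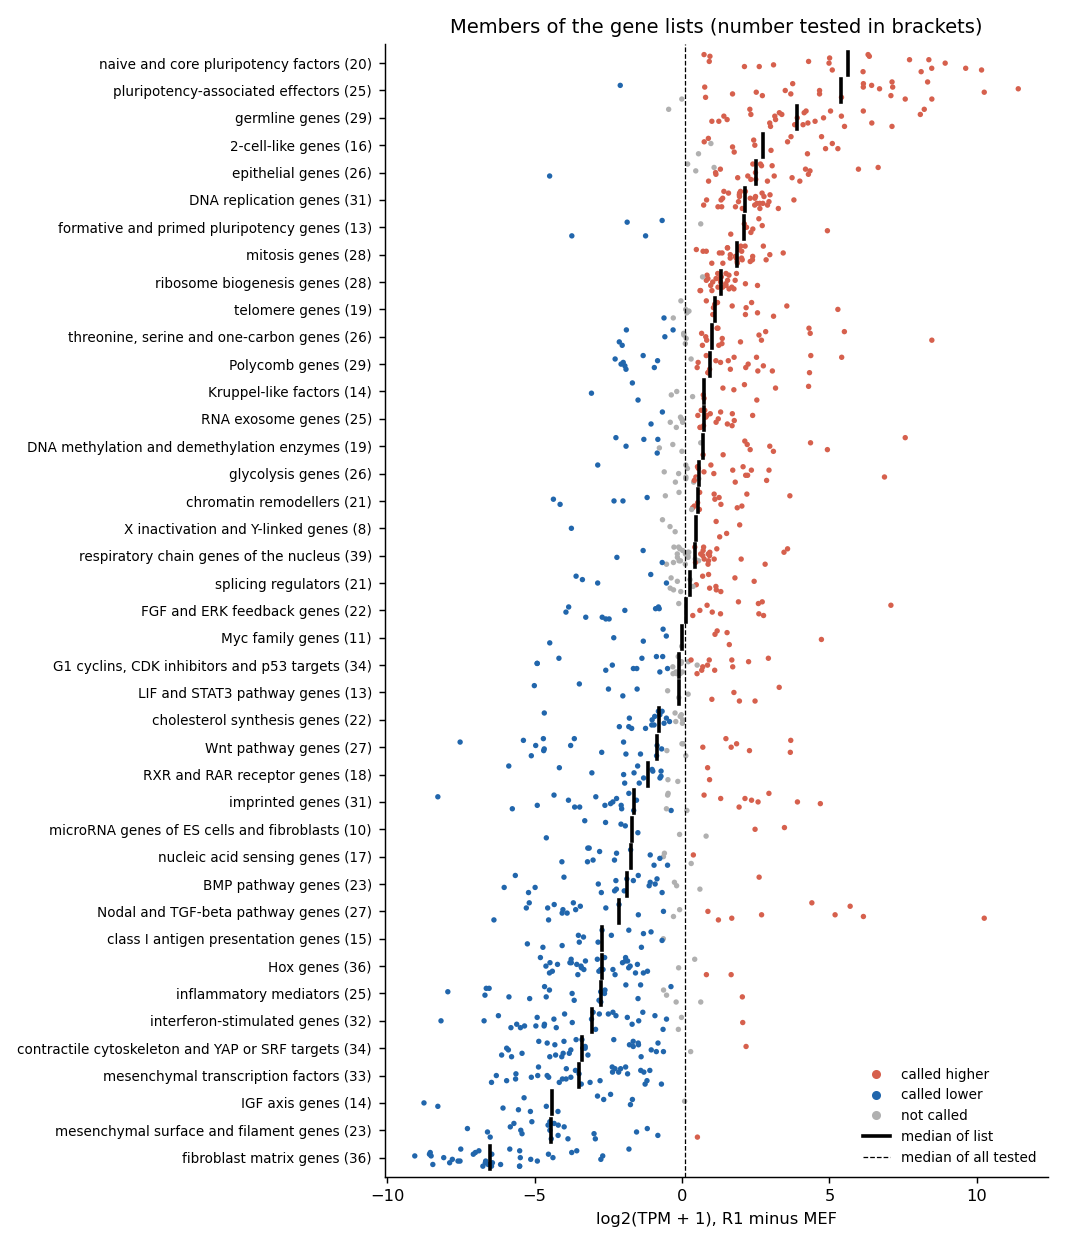
Each point is a tested member of 1 of the 41 gene lists, placed by its log2(TPM + 1) change, R1 minus MEF, and coloured by its call; the bar is the median of the list and the dashed line the median of all genes tested, 0.11. Lists run from a median of -6.52 for fibroblast matrix genes to 5.62 for naive and core pluripotency factors.

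All 20 naive and core pluripotency factors were called higher in R1, against the 36.2% of all genes. Nanog stood at 0 and 0.288 TPM in the MEF libraries and 882 and 902 TPM in the R1 libraries, Sox2 at 0.491 and 0.412 against 288 and 320.3 TPM, and Zfp42 (Rex1) at 0 and 0 against 488 and 482 TPM. Each was at or near 0 in both MEF libraries and high in both R1 libraries. In all, 10 of the 20 were listed at 0 in both MEF libraries, among them Esrrb (239.9 and 316 TPM in R1), Tfcp2l1 (80.6 and 76.2), Prdm14 (30.2 and 32.1), Nr0b1 (82.5 and 79), Nr5a2 (31.9 and 29.5) and Sall4 (69.1 and 69.9). These 10 could not be called lower, so the count of 20 higher is a description. The median change was 5.62, and 2.62 over the 9 members above 0 in all 4 libraries. The Kruppel-like members differed in kind, being present in fibroblasts too. Klf4 stood at 51.7 and 45.4 TPM in MEF and 78.5 and 85.8 TPM in R1 (0.75 ± 0.16, adjusted p = 0.0042 by limma), Klf2 at 26 and 29.8 against 112 and 138 (2.12 ± 0.18), and Klf5 at 10.3 and 10.4 against 222 and 219.9 (4.29 ± 0.11). Klf4 showed the smallest change of the 20. Trp53, Zfp281, Rif1 and Tbx3 were likewise present in MEF, and Rif1, which sets replication timing and guards telomeres, differed most among them (11.5 and 6.79 against 88.7 and 78.9 TPM, 3.10 ± 0.24).

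**Figure D3:**
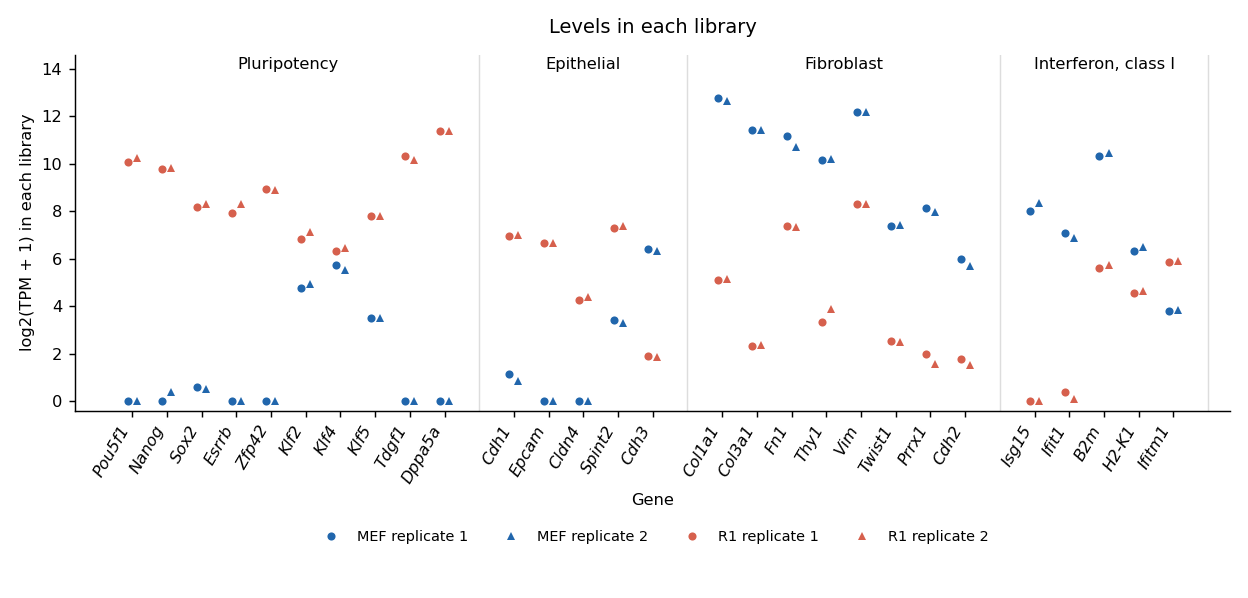
Points give log2(TPM + 1) of 28 named genes in each of the 4 libraries, with colour for the cell type and shape for the replicate. The 2 libraries of a cell type lie close together for each gene, Klf4 has the narrowest gap between cell types among the pluripotency genes, and Cdh3 and Ifitm1 run opposite to the other genes of their groups.

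Effectors that work with these factors followed, 23 of 25 higher and 1 lower. The methyltransferase cofactor Dnmt3l was listed at 0 and 0 TPM in MEF and 177 and 202 in R1, the threonine dehydrogenase Tdh at 0 and 0 against 343 and 365, the growth factor Fgf4 at 0 and 0 against 136 and 133, and the let-7 antagonist Lin28a at 0 and 0 against 102 and 103 TPM. In all, 13 members were at 0 in both MEF libraries and could not be called lower, so this count too is a description. The median change was 5.41, and 3.01 over the 10 members above 0 in all 4 libraries. L1td1, an RNA-binding protein derived from a LINE element, stood at 327 and 314 TPM in R1 and Mkrn1, a ubiquitin ligase, went from 38.6 and 44.6 to 575 and 569.7 TPM (3.75 ± 0.10). The exceptions were the chromatin protein Hmga2, lower in R1 (208 and 193 against 46.8 and 45.5 TPM, -2.09 ± 0.15), and Igf2bp2, not called (77.1 and 73.1 against 74.3 and 75.1 TPM). Hmga1, the relative of Hmga2, was higher (129 and 147 against 218 and 267 TPM, 0.80 ± 0.22, a call lost without MEF replicate 1, MEF replicate 2 or R1 replicate 2, with adjusted p of 0.115, 0.0635 and 0.0877). Dppa3 (Stella) was low, at 3.22 and 1.55 TPM in R1.

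Genes of the formative and primed states, through which epiblast cells leave naive pluripotency, were mixed: 8 of 13 higher and 4 lower. The de novo methyltransferase Dnmt3b (0.812 and 1.53 against 64.9 and 63.7 TPM), Etv4 (16.1 and 18.3 against 100.1 and 120.0) and Etv5 (15.7 and 14.8 against 106 and 105) were higher in R1. Of the defining markers of the primed state, Fgf5 was at 0 and 0 TPM in R1 and 1.48 and 0.593 in MEF and was not tested. Otx2 (0 and 0 against 3.25 and 3.88 TPM) and Pou3f1 (0.0525 and 0.111 against 2.05 and 2.8 TPM) were called higher in R1 and stood under 5 TPM there. Sox4, a Sox factor of many progenitors, was 14.8-fold lower in R1 (138 and 114 against 8.14 and 8.82 TPM), and Sox11, Lef1 and Cd24a were lower too.

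All 36 fibroblast matrix genes were called lower in R1, against 32.9% of all genes, and 35 fell by at least 2 on the log2 scale. Their TPM summed to 52202 and 48715 in the MEF libraries and to 928 and 974 in R1. Col1a1, the main chain of fibrillar collagen, went from 7118 and 6515 TPM to 33.6 and 34.7 TPM (-7.60 ± 0.13, adjusted p = 4.46e-08 by limma), a 199-fold difference of means. It was among the 5 most abundant non-mitochondrial genes of MEF. The matricellular gene Postn went from 2738 and 2654 to 10.6 and 10.3 TPM, the crosslinking enzyme Lox from 1246 and 1047 to 24.6 and 24.4, and the elastic-fibre gene Eln from 202 and 218 to 0.303 and 0. Fn1, fibronectin, and Sparc had the highest levels of the list in R1, 166 and 162 TPM for Fn1 and 212 and 217 TPM for Sparc. The smallest changes were in P4ha2 (-1.80 ± 0.19), Pcolce (-2.69 ± 0.21) and Timp1 (-2.75 ± 0.15), an enzyme of collagen hydroxylation, an enhancer of collagen processing and a protease inhibitor.

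All 33 tested mesenchymal transcription factors were also lower in R1, 25 of them by at least 2, with a median of -3.49. Twist2 went from 154 and 147 to 0.989 and 0.489 TPM (-6.46 ± 0.46), Prrx1 from 282 and 253 to 2.95 and 1.95 (-6.30 ± 0.18), Twist1 from 167 and 169.7 to 4.84 and 4.58 (-4.89 ± 0.30) and Zeb2 from 36.4 and 28.3 to 0.349 and 0.541 (-4.52 ± 0.20). These are drivers of mesenchymal identity, and each lay far apart between the cell types. Zeb1, the relative of Zeb2, changed less (31 and 23 against 10.8 and 8.34 TPM, -1.40 ± 0.21). Osr1, Lhx9, Alx4 and Six2, factors of embryonic mesenchyme, were listed at 0 in both R1 libraries. Of the surface and filament genes, 22 of 23 were lower. Thy1, a classic fibroblast antigen, went from 1161 and 1188 to 9.0 and 13.7 TPM (-6.60 ± 0.19), the PDGF receptor Pdgfra from 125 and 102 to 0.932 and 1.48 (-5.70 ± 0.21), the cadherin Cdh11 from 517 and 477 to 2.18 and 2.24 (-7.28 ± 0.13), and the intermediate filament Vim from 4662 and 4667 to 317 and 319.9 (-3.87 ± 0.10). The exception was the TGF-beta co-receptor Eng, higher in R1 (30.1 and 27.7 against 43.1 and 40.8 TPM, 0.52 ± 0.16, adjusted p = 0.0226 by limma), a call that was lost without any 1 of the 4 libraries (adjusted p from 0.0669 to 0.121).

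Epithelial genes ran the other way, 22 of 26 higher and 1 lower. E-cadherin, Cdh1, which joins ES cells into compact colonies, went from 1.23 and 0.813 to 125 and 128 TPM (5.98 ± 0.13, adjusted p = 1.19e-07 by limma). Epcam was listed at 0 and 0 against 99.9 and 99.2 TPM. In both MEF libraries 11 members were at 0, among them the claudins Cldn3, Cldn4, Cldn6 and Cldn7. Those 11 could not be called lower, so the count is a description. The list median was 2.50, and 2.33 over the 13 members above 0 in all 4 libraries. The list was not evenly represented. The protease system Spint1 (64.9 and 70.1 TPM in R1), Spint2 (158 and 167) and St14 (37.2 and 38.8) was well represented, whereas the simple keratins Krt8 (2.27 and 3.13 against 9.85 and 16.1 TPM), Krt18 (6.46 and 9.04 against 8.64 and 9.13) and Krt19 (6.52 and 10.3 against 12.3 and 11.3) were low and only Krt8 was called. The epithelial splicing factor Esrp1 stood at 1.69 and 0.829 TPM in R1. P-cadherin, Cdh3, was the exception in direction, at 83.4 and 79.5 TPM in MEF and 2.75 and 2.6 TPM in R1 (-4.49 ± 0.14).

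YAP and SRF are transcription regulators that respond to cell spreading and actin tension. A list of contractile cytoskeleton genes, YAP and SRF targets and some of their regulators was lower in 32 of 34 cases. Smooth muscle actin Acta2 went from 3497 and 3708 to 59.8 and 69.7 TPM (-5.78 ± 0.10), Tagln from 1882 and 2121 to 27.1 and 39.5 (-5.89 ± 0.27), the caveolin Cav1 from 702 and 646 to 10.3 and 9.61 (-5.95 ± 0.11), and the YAP target Ccn2 from 442 and 477 to 33 and 32.5 (-3.77 ± 0.12). Yap1, Wwtr1 (TAZ) and Srf themselves changed by less than the list median of -3.38. Yap1 stood at 154 and 133 against 67.4 and 70.7 TPM (-1.04 ± 0.11), Wwtr1 at 96.2 and 86.8 against 35.1 and 29.2 (-1.48 ± 0.14) and Srf at 65.3 and 52.1 against 29.8 and 36 (-0.81 ± 0.15). Lats2, another regulator in the list, changed by more (65.4 and 53 against 2.75 and 2.58 TPM, -4.03 ± 0.21). Within the TEAD family, the DNA-binding partners of YAP, Tead1 (-1.48 ± 0.19) and Tead3 (-3.39 ± 0.37) were lower in R1. Tead2 was not called (65.6 and 58.1 against 81.5 and 70.7 TPM) and Tead4 was higher (3.71 and 2.82 against 18.1 and 18.1 TPM, 2.17 ± 0.19).

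Interferon-stimulated genes were lower in R1 in 29 of 32 cases, 22 of them by at least 2 (background 11.7%), with a median of -3.04 and of -2.34 over the 23 above 0 in all 4 libraries. ES cells are known to answer interferon weakly. Isg15, a ubiquitin-like modifier, stood at 258 and 321 TPM in MEF and was listed at 0 and 0 in R1. Ifit1 went from 133 and 115 to 0.316 and 0.0772 TPM (-6.71 ± 0.19), Oasl2 from 55 and 49.8 to 0.0537 and 0.138 (-5.61 ± 0.20) and Usp18, which removes Isg15 from proteins, from 53 and 58.2 to 0 and 0.607 (-5.48 ± 0.27). The MEF libraries were high and the R1 libraries near 0 for each. The signalling chain was lower too: the receptor chains Ifnar1 (-1.69 ± 0.14) and Ifnar2 (-1.33 ± 0.37), Stat2 (-1.47 ± 0.15), Irf9 (-2.50 ± 0.17) and Irf7 (-4.96 ± 0.38). Antiviral membrane proteins of the Ifitm family stood apart. Ifitm1, also a surface antigen of early germ cells, was higher in R1 (12.9 and 13.3 against 57.3 and 58.2 TPM, 2.06 ± 0.15, adjusted p = 1.68e-05 by limma), while Ifitm2 and Ifitm3 were lower and yet stood at 380.0 and 402 TPM (Ifitm2) and 272 and 264 TPM (Ifitm3) in R1. Oas1a and Oas1c were not called.

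Many promoters of this group hold a motif. The list is of genes known to answer interferon, so a high share with the motif could follow from that choice alone, whatever their levels here. The interferon-stimulated response element is bound by complexes that hold Irf9; its core was searched as GAAANN followed by GAAA on both strands, overlapping matches included, in RefSeq promoters (GRCm38.p6) from 250 bases before to 50 after the start site. Of the 32 genes, 24 had a promoter in the table and 13 of those held the core (54.2%), against 420 of the 11357 promoters of genes tested (3.70%), 6.95% of the promoters of genes lower by at least 2 and 3.01% of those higher by at least 2. The 3 promoters below give the 250 bases before the start site, 5′ to 3′ on the strand of the gene, with matches to the core in capitals. That of Isg15 is at chr4:156200819-156201068 (minus strand) with 3 overlapping matches, that of Ifit3 at chr19:34583279-34583528 (plus strand) with 2 on the opposite strand, and that of Rsad2 at chr12:26456453-26456702 (minus strand) with 1, also on the opposite strand.
Isg15: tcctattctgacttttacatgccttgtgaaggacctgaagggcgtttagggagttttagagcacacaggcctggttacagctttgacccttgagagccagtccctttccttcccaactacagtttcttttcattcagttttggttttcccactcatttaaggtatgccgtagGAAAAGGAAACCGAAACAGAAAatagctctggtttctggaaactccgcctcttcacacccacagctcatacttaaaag
Ifit3: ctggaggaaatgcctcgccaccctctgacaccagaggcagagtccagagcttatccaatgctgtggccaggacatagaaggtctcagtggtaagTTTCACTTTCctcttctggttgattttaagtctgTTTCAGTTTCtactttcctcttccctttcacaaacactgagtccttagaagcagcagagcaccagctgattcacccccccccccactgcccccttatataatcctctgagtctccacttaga
Rsad2: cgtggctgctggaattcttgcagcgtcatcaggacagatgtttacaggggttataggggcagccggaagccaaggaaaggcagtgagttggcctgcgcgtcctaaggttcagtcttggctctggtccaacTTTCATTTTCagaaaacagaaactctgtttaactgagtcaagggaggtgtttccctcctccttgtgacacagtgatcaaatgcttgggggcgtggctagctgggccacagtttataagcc
Ifit3 stood at 88.8 and 92.2 TPM in MEF and 0 and 0.493 in R1, and the antiviral enzyme Rsad2 (viperin) at 9.32 and 5.83 against 0 and 0 TPM. A match is a run of letters and shows no binding; Oas1a, which was not called, and Ifitm2 (-0.64 ± 0.16) hold the core too.

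Class I antigen presentation followed the same direction in 14 of 15 genes. B2m, the light chain of every class I molecule, went from 1286 and 1407 to 47.7 and 52.8 TPM (-4.72 ± 0.10, a 26.8-fold difference, adjusted p = 9.76e-08 by limma). The heavy chains H2-K1 (79.9 and 88.5 against 22.7 and 24.1 TPM) and H2-D1 (84.4 and 98.8 against 11.6 and 12.1) changed less than B2m, and the nonclassical H2-T23 went from 40.2 and 52.9 to 0 and 0.547 TPM. Class I genes are near-identical copies of each other, so the split of reads among heavy chains is uncertain. Peptide supply was lower as well, with the transporter chains Tap1 (-2.40 ± 0.24) and Tap2 (-3.48 ± 0.32), the trimming enzyme Erap1 (-3.51 ± 0.21) and the immunoproteasome subunit Psmb8 (-4.07 ± 0.40); Psmb10 was not called (31.6 and 55.2 against 24.5 and 28.8 TPM). Nlrc5, the transactivator of class I genes, was lower in R1 from a low level in MEF (1.54 and 1.14 against 0.114 and 0.137 TPM).

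Sensors of foreign nucleic acid were lower in 13 of 17 cases and higher in 1. The RNA helicase Ifih1 (MDA5) stood at 16.2 and 15.4 TPM in MEF and 0 and 0 in R1, its relative Ddx58 (RIG-I) at 64.7 and 60.2 against 10.7 and 13.3 (-2.29 ± 0.15), the adaptor of DNA sensing Tmem173 (STING) at 60.8 and 47.9 against 4.87 and 6.87 (-3.02 ± 0.29), and the double-stranded RNA receptor Tlr3 at 5.13 and 3.79 against 0.243 and 0.089 (-2.22 ± 0.22). Not all of the chain was lower: Mavs, the adaptor of RNA sensing, was not called (17.4 and 21.4 against 24.2 and 24.2 TPM), and neither were Cgas and Irf3. The ubiquitin ligase Trim25 was the member called higher (44.8 and 41.4 against 58.8 and 54.4 TPM, 0.38 ± 0.10), though not without R1 replicate 1 (adjusted p = 0.0722).

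Inflammatory mediators were lower in 20 of 25 cases and higher in 1. The chemokine genes Ccl2 (299 and 332 against 4.66 and 4.17 TPM, -5.87 ± 0.34), Ccl7 (388 and 471 against 11.1 and 10.7, -5.17 ± 0.24) and Cxcl12 (204 and 208 against 1.66 and 0.864, -6.54 ± 0.22) were abundant in MEF and nearly absent from R1. Il1rl1, the receptor of interleukin 33, went from 260.3 and 259 to 0.126 and 0 TPM (-7.94 ± 0.30) and the pentraxin Ptx3 from 108 and 118 to 0.177 and 0.111 (-6.64 ± 0.19). Icam1, an adhesion ligand of leukocytes, was the exception, at 18 and 18.6 TPM in MEF and 76.1 and 81.1 in R1 (2.05 ± 0.11, adjusted p = 4.2e-06 by limma).

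Macrophage markers moved with these groups. All 12 were called lower in R1, and their TPM summed to 1336 and 1608 in MEF and 43.7 and 47.2 in R1. Lyz2, lysozyme of myeloid cells, carried most of that sum, at 869 and 1057 TPM in MEF and 10.7 and 10.8 in R1. The complement chains C1qa (74.8 and 98.9 TPM in MEF), C1qb (91.9 and 110.4) and C1qc (70.0 and 77.4), the receptor Csf1r (27.2 and 23.3) and the adaptor Tyrobp (43.6 and 51.2) were present in MEF, and Ptprc (CD45) was low there (5.91 and 5.38). Their part in the interferon, class I and inflammatory results was not tested. In bulk RNA, fewer cells of a type and less RNA per cell cannot be told apart.

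Of the germline genes, 28 of 29 tested were higher in R1 and 24 of them by at least 2 (background 9.34%), with a median of 3.91. Of the 29, 22 were listed at 0 in both MEF libraries, and only 4 were above 0 in all 4, with a median of 2.70. The 22 passed the filter only through R1 or induced pluripotent cell libraries and could not be called lower, so the counts are a description. Dazl, an RNA-binding protein of germ cells, stood at 0 and 0 TPM in MEF and 283 and 258 in R1, the homeobox gene Rhox5 at 0 and 0 against 117 and 163, and Tex19.1, a regulator of transposons in germ cells, at 0 and 0 against 69.8 and 70.1 TPM. Genes of the meiotic chromosome axis and the synaptonemal complex were among them: Hormad1 (93.5 and 78.4 TPM in R1), Sycp3 (43.9 and 45.3), Stag3 (32.2 and 32), Smc1b (20.5 and 18.8) and Syce2 (108 and 121). Of genes of the piRNA pathway, Mael stood at 28.1 and 36, Tdrd12 at 25.1 and 18.9, Piwil2 at 14.5 and 12.9 and Tdrd1, not tested, at 0.39 and 0.581 TPM. Ddx4 (Vasa), the classic marker of later germ cells, reached only 7.76 and 6.83 TPM (2.41 and 2.57 in MEF). Rpl10l, a retrocopy of a ribosomal protein gene, was listed at 289 and 303 TPM in R1, and reads may be shared with its parent gene.

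Many germline genes have CpG-rich promoters that are methylated in somatic cells, and some hold the E-box CACGTG, which dimers of Max with Mga or Myc bind. It is palindromic, so both strands give the same matches. Of the 25 germline genes with a RefSeq promoter, 12 held it (48.0%), against 11.5% of all 11357. The 250 bases before the start site are shown for 3 genes listed at 0 in MEF, with the E-box in capitals: Sycp3 at chr10:88459337-88459586, Hormad1 at chr3:95559427-95559676 and Slc25a31 at chr3:40708621-40708870, all on the plus strand of GRCm38.p6.
Sycp3: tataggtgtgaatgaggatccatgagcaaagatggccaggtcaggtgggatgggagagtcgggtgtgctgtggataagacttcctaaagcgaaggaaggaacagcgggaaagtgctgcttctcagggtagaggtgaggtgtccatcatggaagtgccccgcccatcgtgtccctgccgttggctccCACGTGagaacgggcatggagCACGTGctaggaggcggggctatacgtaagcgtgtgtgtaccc
Hormad1: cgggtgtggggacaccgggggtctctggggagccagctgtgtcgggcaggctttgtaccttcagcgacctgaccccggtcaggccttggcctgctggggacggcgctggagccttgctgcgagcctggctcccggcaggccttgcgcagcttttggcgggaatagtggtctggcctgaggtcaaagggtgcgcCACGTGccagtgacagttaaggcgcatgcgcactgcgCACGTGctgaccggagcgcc
Slc25a31: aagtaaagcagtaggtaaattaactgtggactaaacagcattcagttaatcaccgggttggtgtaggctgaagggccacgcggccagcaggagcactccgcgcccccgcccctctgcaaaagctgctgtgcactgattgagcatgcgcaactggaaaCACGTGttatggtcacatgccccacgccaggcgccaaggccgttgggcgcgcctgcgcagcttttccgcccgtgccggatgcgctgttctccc
Sycp3 and Hormad1 hold 2 matches each, and Slc25a31, a germ cell carrier of adenine nucleotides at 8.03 and 7.68 TPM in R1, holds 1. Mga itself was higher in R1 (8.68 and 6.55 against 19.2 and 16 TPM, 1.12 ± 0.18) and Max was not called (79.6 and 89.9 against 83.7 and 84.2 TPM). Whether these dimers bind the promoters here, and whether they raise or lower the genes, was not tested. Methylation was not measured here.

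Genes of the 2-cell-like state, a rare and transient condition of ES cells in culture, were higher in 14 of 16 cases. Of the 16, 15 were at 0 in both MEF libraries and could not be called lower, so this count too is a description. The Zscan4 copies carried most of it, with Zscan4c at 38.5 and 37.5 TPM, Zscan4f at 35.5 and 31.1, Zscan4d at 24.9 and 26.3 and Zscan4a at 19.4 and 16.9 TPM in R1. They are near-identical copies, so only their presence and not their split can be read. Pramel6 (23.2 and 34.3 TPM) and Pramel7 (12.9 and 11.1 TPM) accompanied them, whereas the inducer of the state, Duxf3, was at 0.965 and 0.273 TPM and was not tested.

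In a list of DNA methylation and demethylation genes, 10 of 19 were higher and 5 lower. The 5 lower were Tet3, Uhrf2, Mbd1, Mbd2 and Mbd3, and no DNA methyltransferase was among them. Dnmt3b (4.93 ± 0.16), Uhrf1, which guides Dnmt1 to new strands (29.4 and 26 against 239 and 251 TPM, 3.10 ± 0.13), and Dnmt1 (43.2 and 35.8 against 98.5 and 112, 1.39 ± 0.17) were higher in R1, and Dnmt3a was not called (15 and 11.1 against 23.3 and 18.3 TPM). Of the TET oxidases, which start demethylation, Tet1 went from 0.975 and 0.748 to 38.3 and 35.9 TPM (4.36 ± 0.14) and Tet2 from 4.65 and 2.64 to 24.3 and 19 (2.31 ± 0.23), and Tet3 went from 10.6 and 8.91 down to 1.33 and 1.2 (-2.24 ± 0.19). The readers Mbd1, Mbd2 and Mbd3 were lower. Zfp57 (40.7 and 43.6 against 333 and 344 TPM) and its partner Trim28 (228 and 243 against 1069 and 1119), which protect imprints, were higher.

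Polycomb genes were higher in 20 of 29 cases and lower in 8. The core of PRC2, which methylates lysine 27 of histone H3, was higher throughout, with Ezh2 from 25.8 and 25.1 to 173 and 183 TPM (2.76 ± 0.10), Eed (2.57 ± 0.15) and Suz12 (2.53 ± 0.15). Accessory subunits of PRC2 did not move alike. Jarid2 went from 4.93 and 4.02 to 103 and 113 TPM (4.32 ± 0.12) and Mtf2 from 19.8 and 16.6 to 406 and 383 (4.37 ± 0.15), more than the core. Phf19 (0.89 ± 0.21) and Aebp2 (0.88 ± 0.16) were higher by less than the core. Phf1 was lower (15.7 and 16.4 against 2.82 and 4.18, -1.94 ± 0.24). Ezh1 was not called (9.52 and 9.62 against 10.8 and 13.5 TPM). Within PRC1, which ubiquitinates histone H2A, the chromobox subunits traded places. Cbx7 went from 0.717 and 0.938 to 74.9 and 78.8 TPM (5.41 ± 0.12), whereas Cbx6 (67.5 and 62.4 against 16.2 and 17.1, -1.90 ± 0.14) and Cbx8 (3.24 and 4.89 against 0.0928 and 0.301, -2.07 ± 0.23) were lower. The same held for the polyhomeotic subunits Phc1 (3.06 ± 0.14) and Phc2 (-2.27 ± 0.15), and for Pcgf6 (2.24 ± 0.12) against Bmi1 (-0.94 ± 0.21).

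Chromatin remodellers were higher in 13 of 21 cases and lower in 5. The ATPase of BAF complexes, Smarca4 (Brg1), was not called (77.5 and 65.6 against 62.5 and 70.6 TPM), but its alternative Smarca2 (Brm) was 35.3-fold lower in R1 (35.4 and 30.6 against 1.07 and 0.803, -4.13 ± 0.18). Smarcc1 was higher (1.09 ± 0.12) and Smarcc2 lower (73.6 and 61.4 against 15.2 and 16.9, -2.0 ± 0.15), which are the subunits that differ between the ES cell and somatic forms of the complex. Chd3 was lower (150.2 and 128 against 4.56 and 7.32 TPM, -4.36 ± 0.23) and Chd4, the other ATPase of NuRD, slightly higher (0.42 ± 0.14). The helicase Hells, needed for DNA methylation of repeats, went from 13.1 and 13.3 to 185 and 172 TPM (3.66 ± 0.15).

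Each motif was searched in the interferon, class I, germline, contractile, pluripotency factor, fibroblast matrix and DNA replication lists, and not in the other lists. The CArG box, which SRF binds, lay in 4 of 30 promoters of the contractile list (13.3%) against 1.66% of all. That list takes in known SRF targets, so its share could follow from how it was chosen. The E2F core GCGGGA lay in 16 of 24 promoters of DNA replication genes (66.7%), against 38.8% of all. It lay in 53.3% of the contractile list and 48.0% of germline genes. The octamer ATTTGCAT, which Pou5f1 binds, did not set the pluripotency factors apart. It lay in 1 of their 13 promoters (7.69%) and in 2 of 24 promoters of fibroblast matrix genes (8.33%), against 1.70% of all. Promoters of genes higher by at least 2 held it in 2.44% of cases and those of genes lower by at least 2 in 2.39%.

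All 31 DNA replication genes and all 28 mitosis genes were higher in R1, with medians of 2.15 and 1.87. The helicase subunit Mcm5 stood at 40.4 and 36.9 TPM in MEF and 225 and 212 in R1 (2.47 ± 0.10), the origin protein Orc1 at 5.89 and 4.34 against 86.3 and 80.1 (3.79 ± 0.14), and the reductase subunit Rrm2 at 89.6 and 92.6 against 351 and 359 (1.95 ± 0.08). Ccnb1, cyclin B1, went from 53.5 and 54.8 to 459 and 409.9 TPM (2.98 ± 0.11) and the checkpoint kinase Bub1 from 17.7 and 19.5 to 216 and 205 (3.43 ± 0.17). The proliferation marker Mki67 differed little (29.3 and 21.4 against 34.7 and 36.2 TPM, 0.49 ± 0.16, adjusted p = 0.0274 by limma), and its call was lost without MEF replicate 2 (adjusted p = 0.0894), R1 replicate 1 (0.0818) or R1 replicate 2 (0.111), and in a fit of the MEF and R1 libraries alone (0.0733). Shares of cells in each phase were not measured.

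The G1 list was split, 11 of 34 higher and 12 lower, which is near the background. Of the 7 inhibitors of cyclin-dependent kinases, 6 were lower and Cdkn2d was not called: Cdkn1c went from 183 and 175 to 4.59 and 5.44 TPM (-4.91 ± 0.16), Cdkn2b from 82.4 and 97.7 to 3.83 and 4.22 (-4.17 ± 0.17), the Ink4a/Arf locus Cdkn2a from 89.3 and 118 to 15.7 and 16.9 (-2.59 ± 0.16) and Cdkn1a (p21) from 302 and 306 to 95.5 and 97.1 (-1.65 ± 0.09). Cyclin E1, Ccne1, was 7.84-fold higher in R1 (29 and 29.7 against 233 and 227 TPM, 2.93 ± 0.08), and of the D cyclins Ccnd2 was lower (292 and 215 against 7.89 and 6.81, -4.92 ± 0.18), Ccnd1 lower (-0.87 ± 0.11) and Ccnd3 higher (1.11 ± 0.12). Targets of p53 went both ways. Trp53 was itself higher (126 and 135 against 236 and 261 TPM), Perp was higher (2.26 ± 0.16), Phlda3 lower (-1.53 ± 0.12), and Bax, Pmaip1, Bbc3, Sesn2 and Zmat3 were not called.

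In energy metabolism the largest rise was at the entry of glucose. Of 26 glycolysis genes, 16 were higher, 1 lower and 9 not called. The transporter Slc2a3 (GLUT3) went from 3.94 and 4.25 to 599.7 and 586 TPM (6.87 ± 0.14, a 145-fold difference, adjusted p = 7.54e-08 by limma), Slc2a1 (GLUT1) from 59.2 and 64.3 to 315 and 323 (2.35 ± 0.09), and the hexokinase Hk2 from 12.4 and 11.6 to 89.3 and 99.1 (2.87 ± 0.12). In the middle of the pathway Tpi1 (381 and 376 against 392 and 437 TPM), Gapdh, Aldoa and Pkm were not called, and Pgk1 (0.42 ± 0.11) and Eno1 (0.47 ± 0.10) were higher by small steps. At the exit, Ldhb (22.8 and 32.1 against 127 and 134 TPM), the lactate transporters Slc16a1 (2.16 ± 0.14) and Slc16a3 (1.80 ± 0.19) and Pdk1, which blocks entry of pyruvate into mitochondria (8.11 and 8.7 against 72.2 and 71.1, 2.95 ± 0.10), were higher. Eno2 was the member called lower (-2.86 ± 0.22).

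Mouse ES cells are known to split threonine into glycine to feed one-carbon metabolism. Of 26 genes of that list, 17 were higher and 5 lower. Besides Tdh, the glycine cleavage genes Gldc (0.0783 and 0.167 against 47.5 and 52.6 TPM, 5.51 ± 0.12) and Amt (2.19 and 2.9 against 71.6 and 69.9, 4.35 ± 0.13) and the cystathionine synthase Cbs (0.292 and 0 against 19.5 and 23.6) were among the largest rises. Synthesis of serine from glucose was the other way about: Phgdh, its first enzyme, was lower in R1 (359.5 and 405 against 93.2 and 113 TPM, -1.89 ± 0.13), as was Psat1 (-0.58 ± 0.09), with Psph not called. The cytosolic folate enzymes Shmt1 (2.84 ± 0.14) and Mthfd1 (2.69 ± 0.11) were higher, the mitochondrial Shmt2 and Mthfd2 were not called.

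Nuclear genes of the respiratory chain changed by little, 18 of 39 higher, 3 lower and 18 not called, with a median of 0.43. The largest rises lay in subunits with tissue-specific forms. Cox4i2 went from 0 and 1.16 to 12.2 and 22.4 TPM (3.58 ± 0.54). Cox6b2, a testis form, went from 6.7 and 5.78 to 76 and 80.9 TPM (3.46 ± 0.31) beside a Cox6b1 that was not called, and Ndufa4l2 from 3.79 and 4.74 to 34.3 and 37.7 (2.82 ± 0.27). The ATP synthase chains Atp5a1 (0.88 ± 0.09) and Atp5b (0.94 ± 0.11) were higher. Cholesterol synthesis was lower in R1 in 16 of 22 cases and higher in none. Sc5d (65.4 and 66.9 against 14.8 and 14 TPM, -2.13 ± 0.12), Hsd17b7 (-1.80 ± 0.16) and Mvk (-1.79 ± 0.21) were lower, while Srebf2, the regulator of the pathway, was not called (148 and 129 against 118 and 121 TPM).

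Of 13 LIF and STAT3 pathway genes, 5 were higher in R1, 5 lower and 3 not called, near the background. LIF signals through Lifr and Il6st (gp130) to JAK kinases and Stat3, whose targets include Socs3 and the Pim kinases. Lifr (13.3 and 10.0 against 10.5 and 10.8 TPM) and Lif (3.84 and 4.74 against 3.43 and 2.19) were not called, and Il6st (125 and 96 against 18.6 and 18.6, -2.49 ± 0.15), Jak1 (-2.01 ± 0.13), Jak2 (-3.48 ± 0.14), Stat3 (129.8 and 106 against 39.1 and 41.2, -1.52 ± 0.18) and Osmr (73.9 and 63.2 against 1.3 and 1.02, -5.01 ± 0.23) were lower in R1. The targets Socs3 (22.2 and 23 against 121 and 140.5 TPM, 2.48 ± 0.13), Pim1 (1.76 ± 0.13), Pim3 (15.3 and 16.1 against 151 and 176, 3.30 ± 0.11) and Bcl3 (1.95 ± 0.13) were higher.

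Of the FGF and ERK feedback genes, 11 of 22 were higher and 10 lower. The ligands Fgf4, Fgf15 and Fgf17 were at 0 in both MEF libraries, and Fgf2 (16.1 and 11.9 against 0.694 and 0.413 TPM), Fgf7 (22.5 and 19.4 against 0.377 and 0.483) and Fgf18 were lower in R1. Of the receptors Fgfr1 went from 218 and 230.3 to 39 and 40.0 TPM (-2.47 ± 0.09) and Fgfr2 from 32.3 and 25.8 to 1.81 and 0.539 (-3.84 ± 0.33), while Fgfr3 and Fgfr4 were higher from low levels. Feedback inhibitors of ERK followed no common direction: Spry4 (1.03 ± 0.17) and Spry2 (0.85 ± 0.10) were higher and Spry1 (-2.71 ± 0.16), Dusp4 (-2.58 ± 0.24) and Dusp6 (-0.80 ± 0.13) lower.

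Of 27 Nodal and TGF-beta pathway genes, 9 were higher in R1 and 16 lower. In the Nodal branch, Nodal itself was listed at 0 and 0 TPM in MEF and 33.5 and 37.6 in R1, its antagonist Lefty2 at 0 and 0 against 48.4 and 53.9, the ligand Gdf3 at 0 and 0.399 against 86.3 and 79.9, the nuclear partner Foxh1 at 0 and 0 against 19.6 and 20.7, and the receptor Acvr2b at 0.571 and 0.825 against 8.65 and 11.5 TPM. These genes were under 1 TPM in MEF, whereas Lefty1, the other Lefty gene, was present there and also higher in R1 (3.75 and 4.32 against 13.2 and 17.4 TPM, 1.69 ± 0.18). Ligands and a receptor of the TGF-beta branch were lower: Tgfb3 went from 166 and 155 to 0.992 and 0.888 TPM (-6.38 ± 0.15), Tgfbr2 from 115 and 97.7 to 2.23 and 1.7 (-5.18 ± 0.18) and Inhba from 138 and 110.1 to 4.8 and 5.56 (-4.33 ± 0.16). BMP genes were lower in 19 of 23 cases, including the antagonist Grem1 (129.9 and 111 against 0.686 and 1.04 TPM) and the target Id3 (187 and 240.2 against 11.6 and 13.1, -4.00 ± 0.17). Id1, the BMP target that helps to hold ES cells undifferentiated, was not called (47.5 and 72 against 49.7 and 48 TPM), Bmp4 was lower (-1.08 ± 0.18), and Bmp7 was the member called higher (5.62 and 5.3 TPM in R1).

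The IGF axis was lower in 13 of 14 genes and higher in none. Igf2, a growth factor of fetal tissue, went from 521 and 451 to 0.593 and 0.534 TPM (-8.28 ± 0.37) and Igf1 from 40.1 and 33.6 to 0.143 and 0. The receptor gene Igf1r went from 29.5 and 23.7 to 3.18 and 3.54 TPM (-2.66 ± 0.20). Binding proteins were lower too, with Igfbp5 (536 and 412 against 0.196 and 0 TPM), Igfbp3 (558 and 599.9 against 6.6 and 8.79) and Igfbp7 (978 and 1159 against 23.9 and 26.2), except Igfbp2, which was not called and stood high in both (328 and 387 against 367 and 389 TPM).

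In the Wnt pathway 7 of 27 genes were higher and 16 lower. The ligands Wnt5a (54.7 and 50.2 against 0.454 and 0.644 TPM) and Wnt4 and the receptors Fzd1 and Fzd2 (154 and 150.0 against 2.93 and 2.45, -5.38 ± 0.17) were lower in R1, and the R-spondin receptor Lgr5 stood at 196 and 172 TPM in MEF and at 0 and 0 in R1. Fzd10 (0.186 and 0.198 against 14.1 and 14.3 TPM, 3.67 ± 0.17) and Fzd5 (1.67 ± 0.18) were higher. The nuclear factors were exchanged: Tcf7 went from 2.42 and 2.14 to 38.6 and 44.1 TPM (3.69 ± 0.14), Tcf7l1 (Tcf3) from 44.6 and 34.8 to 61.6 and 68.3 (0.71 ± 0.21; not called without MEF replicate 2, R1 replicate 1 or R1 replicate 2, with adjusted p of 0.159, 0.0560 and 0.102), and Tcf7l2 was lower (-1.90 ± 0.17). Beta-catenin, Ctnnb1, was not called (488 and 493 against 504 and 476 TPM, 0.00 ± 0.09), and neither was the target Axin2.

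A list of retinoid receptors, their partners, and binding proteins and degrading enzymes of retinoic acid was lower in R1 in 14 of 18 cases and higher in 2. The count is therefore not one of receptors alone. Only the RXR receptors in it are the class that the agonist of the series addresses. Rxra stood at 35.2 and 31.8 TPM in MEF and 11 and 9.38 in R1 (-1.63 ± 0.22, adjusted p = 0.000382 by limma), a 3.29-fold difference of means. Rxrb was not called (36.6 and 25.2 against 21.2 and 21.9 TPM) and Rxrg was at 0 throughout. Crabp1, which binds retinoic acid in the cytoplasm, went from 1096 and 1266 to 19 and 19.2 TPM (-5.87 ± 0.21), and the degrading enzyme Cyp26b1 from 22.4 and 18.4 to 0.179 and 0.202 (-4.16 ± 0.20). Rarg was lower (68.3 and 68.1 against 34.4 and 47 TPM, -0.75 ± 0.26, adjusted p = 0.033 by limma), a call that was lost with no filter on low values (adjusted p = 0.0703) and without MEF replicate 1 or 2 or R1 replicate 1, and Cyp26a1 was near 0 in MEF and low in R1 (0 and 0.355 against 0.607 and 2.08 TPM), with a call that was lost without MEF replicate 1 (adjusted p = 0.213), MEF replicate 2 (0.0742) or R1 replicate 2 (0.203).

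The RNA exosome trims and destroys RNA from the 3′ end. A list of its subunits and of helper genes such as helicases was higher in 17 of 25 genes and lower in 2. The count is therefore not one of exosome subunits alone. Exosc3, a cap subunit, stood at 25.1 and 24.5 TPM in MEF and 54.6 and 72.6 in R1 (1.31 ± 0.19, adjusted p = 0.00067 by limma). The catalytic Dis3 differed most (25 and 22.3 against 131 and 126 TPM, 2.40 ± 0.10), followed by Exosc8 (1.77 ± 0.13), Exosc7 (1.71 ± 0.16) and Exosc5 (1.70 ± 0.20), and Exosc4 was not called. The cytoplasmic helicase Skiv2l was lower (-1.05 ± 0.13) and the nuclear helicase Mtrex higher (0.77 ± 0.09). Ribosome biogenesis genes were higher in 27 of 28 cases, among them nucleolin, Ncl (159.5 and 154 against 520.0 and 548 TPM, 1.76 ± 0.09), and nucleophosmin, Npm1 (989 and 1063 against 3408 and 3759.5, 1.80 ± 0.12). Dkc1, which serves both ribosomal RNA modification and telomerase, went from 31.3 and 33.7 to 205 and 188 TPM (2.56 ± 0.09).

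Telomere genes were higher in 13 of 19 cases and lower in 1. The telomerase gene Tert stood at 1.45 and 1.14 TPM in MEF and 8.41 and 10.3 in R1 (2.17 ± 0.18), and the shelterin subunit Terf1 at 9.72 and 13.8 against 154 and 140.4 (3.55 ± 0.15), while its partner Terf2 was not called (19.15 and 23.5 against 24 and 23.7 TPM). Pot1a was higher (2.36 ± 0.12) and its copy Pot1b was not called. Among splicing regulators, with 9 of 21 higher and 5 lower, the Mbnl factors, which set differentiated splicing patterns, were lower: Mbnl1 went from 99.4 and 83.9 to 5.81 and 7.61 TPM (-3.59 ± 0.20) and Mbnl2 from 169 and 134 to 20.2 and 19.4 (-2.86 ± 0.18). Celf2 was lower (-3.38 ± 0.25) and Celf1 higher (1.32 ± 0.11), and Srsf7 (109 and 126 against 435 and 384 TPM) and Srsf3 were higher.

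Hox genes, which record position along the body axis, were lower in R1 in 32 of 36 tested. The MEF libraries held genes of all 4 clusters, including posterior ones: Hoxb9 (69.8 and 65.6 TPM), Hoxc6 (52.3 and 62.2), Hoxc8 (43.6 and 45), Hoxa10 (34.7 and 36), Hoxd8 (27.2 and 34.8) and Hoxd13 (28.7 and 33.9). In R1 the 39 listed genes summed to 32.7 and 31.4 TPM, against 476 and 522 in MEF. Of the 36 tested, 2 were higher in R1, among them Hoxc13 (1.95 and 1.38 against 7.62 and 7.21 TPM, 1.67 ± 0.20, adjusted p = 0.000218 by limma), and Hoxa4 and Hoxc12 were not called. Hoxb1 and Hoxd1, the front genes of their clusters, were under 1 TPM in all 4 libraries.

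**Figure D4:**
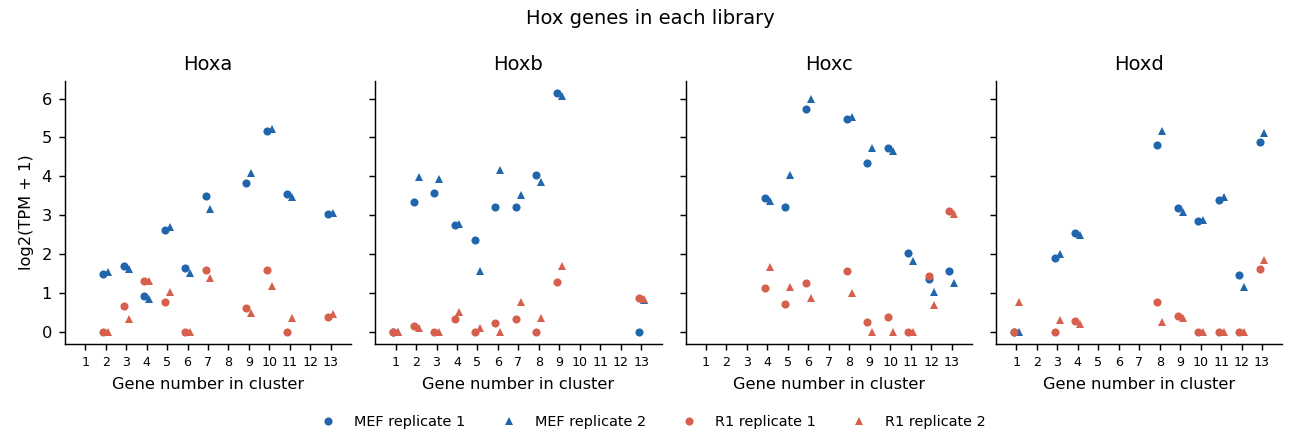
Panels show 38 genes of the 4 Hox clusters, with the gene number on the x axis and log2(TPM + 1) in each of the 4 libraries on the y axis. MEF libraries lie above R1 libraries for nearly every gene, while Hoxc13 runs the other way.

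Imprinted genes were lower in 18 of 31 cases and higher in 9. Among those lower in R1, H19 went from 1410.3 and 1631 to 26.8 and 27.4 TPM (-5.75 ± 0.13), Dlk1 from 86.9 and 104 to 5.35 and 5.97 (-3.85 ± 0.32), Grb10 from 332 and 293 to 14.2 and 14.7 (-4.34 ± 0.11) and Peg3 from 82.3 and 61.2 to 9.8 and 7.35 (-2.92 ± 0.19). Meg3 stood at 291 and 337 against 44.7 and 56.7 TPM and Rian, from the same domain, at 569 and 577 against 129 and 116; both were lower in R1 and present there. Peg10 (6.96 and 4.6 against 105 and 94.8 TPM, 3.91 ± 0.18), Slc38a4 (40.8 and 29.3 against 181 and 182, 2.36 ± 0.16) and Snrpn (1.94 ± 0.10) were higher, and the placental growth restrainer Phlda2 was listed at 0 and 0 against 24.4 and 25.3 TPM. Total levels do not tell the parental alleles apart.

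Xist, the RNA that silences an X chromosome in female cells, stood at 24.6 and 18.2 TPM in MEF and 0.759 and 0.543 in R1 (-3.75 ± 0.22). The Y-linked Ddx3y stood at 13.4 and 13.5 TPM in MEF and 37 and 31.3 in R1 (1.28 ± 0.19) and Eif2s3y at 18.6 and 19.4 against 71.9 and 81.6 (1.96 ± 0.15). The MEF libraries held Xist and Y-linked RNA together, and the R1 libraries Y-linked RNA with little Xist. Sex was not given in the labels, and its part in the results was not tested.

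Pairs of genes, most of them of the same family, were compared within each library as the ratio of their levels, for 30 pairs. In most pairs the first member is known from ES cells or early embryos and the second from fibroblasts or more widely. Lin28a and Lin28b were both at 0 in MEF and give no ratio there. Of the other 29 pairs the ratio was higher in R1 in 26, and in 17 the order of the levels turned over between the cell types; since pairs were chosen with earlier results of these data known, these counts are a description. For Cdh1 over Cdh2 the log2 ratio went from -4.84 in MEF to 5.35 in R1, for Mycn over Myc from -4.64 to 2.40, and for Lmnb1 over Lmna, the B-type and A-type lamins, from -3.84 to 3.0. Lmna itself went from 742 and 739.6 to 30.5 and 35.6 TPM and Lmnb1 from 48.8 and 52.9 to 252 and 289. Tet1 over Tet3 turned from -2.53 to 4.07 and Esrrb over Esrra from -4.14 to 3.93. In 12 pairs the first gene was called higher and the second lower. The ratio was lower in R1 for Cox7a2 over Cox7a1, Cox4i1 over Cox4i2 and Rarg over Rarb. In the Cox7a2 and Cox4i1 pairs the second gene is the tissue-specific form, so these were not ordered like most pairs.

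**Figure D5:**
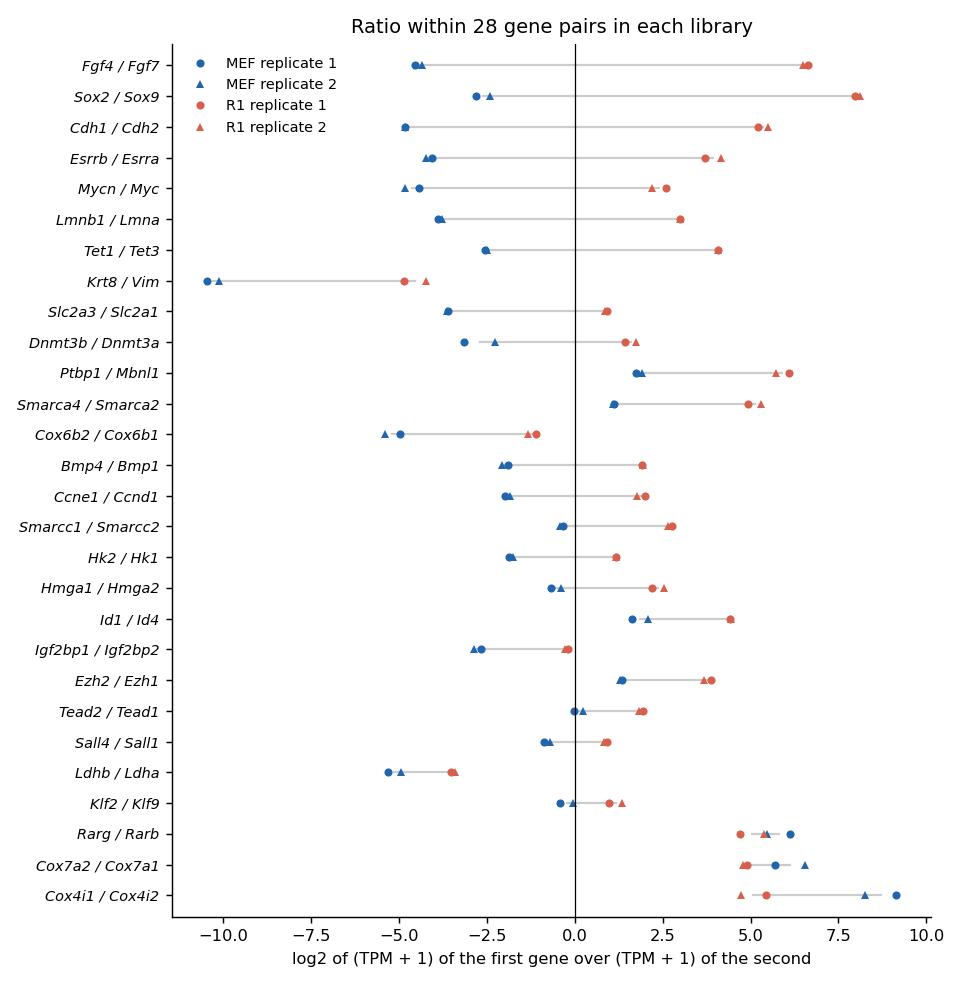
For 28 of the 30 pairs the points give the log2 ratio of TPM + 1 of the first gene over the second in each of the 4 libraries, and the grey line joins the means of the cell types. Pairs are ordered by the difference between R1 and MEF, from Fgf4 over Fgf7 at the top to Cox4i1 over Cox4i2 at the bottom.

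Of the 11 Myc family genes, 5 were higher in R1 and 5 lower. Mycn stood at 0.982 and 0.39 TPM in MEF and 43.6 and 42.3 in R1 (4.73 ± 0.18), and Myc at 41.8 and 39 against 6.39 and 8.36 (-2.31 ± 0.40, adjusted p = 0.00151 by limma), so that MEF and R1 libraries overlapped for neither. With a pseudocount of 0.1 TPM the call on Myc was lost (-2.45, adjusted p = 0.101). The antagonist Mxd4 was lower in R1 (67.6 and 57.3 against 2.72 and 1.14 TPM, -4.49 ± 0.31). Of 14 Kruppel-like factors, 8 were higher and 3 lower. Besides Klf2, Klf4 and Klf5, Klf8 (1.44 and 1.66 against 25.3 and 19.07 TPM, 3.17 ± 0.23) and Klf10 (2.54 ± 0.10) were higher, Klf6 (100.1 and 84.9 against 10.2 and 10.00, -3.07 ± 0.13), Klf13 and Klf7 were lower, and Klf3 was not called.

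MicroRNAs were seen here only through the longer transcripts that carry them; mature microRNAs were not measured. RefSeq gives 999 mature microRNAs inside 543 tested host transcripts on the same strand; 172 hosts were higher in R1 and 231 lower, with a median of -0.10. That is 31.7% higher and 42.5% lower, against 36.2% and 32.9% of all genes tested. A few hosts of well-known families are described, chosen after their values were seen, with the seed of some of their microRNAs, the bases 2 to 8 that pair with targets; hosts also carry microRNAs of other seeds. Mir17hg went from 1.77 and 1.8 to 32.3 and 27.7 TPM (3.47 ± 0.18) and Mcm7, which carries a related cluster in an intron, from 51.6 and 55.5 to 339.5 and 375 TPM (2.71 ± 0.11); their microRNAs include 4 with a seed that overlaps that of the ES cell families miR-290 and miR-302. Lower hosts were 3110039I08Rik (Mir100hg), from 55.9 and 54.4 to 1.37 and 1.25 TPM (-4.60 ± 0.17), Mir22hg, from 49.6 and 56.1 to 8.92 and 7.01 (-2.59 ± 0.16), Mir99ahg, from 3.92 and 2.58 to 0 and 0 TPM, and D630033A02Rik, the host of let-7i, from 5.32 and 5.82 to 0.443 and 0.852 TPM. The mature sequences are given with the seed in capitals, first for hosts higher in R1 and then for hosts lower in R1.
mmu-miR-17-5p (Mir17hg): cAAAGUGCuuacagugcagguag
mmu-miR-20a-5p (Mir17hg): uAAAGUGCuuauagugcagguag
mmu-miR-93-5p (Mcm7): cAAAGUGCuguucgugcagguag
mmu-miR-106b-5p (Mcm7): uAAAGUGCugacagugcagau
mmu-let-7c-5p (Mir99ahg): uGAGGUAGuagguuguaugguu
mmu-let-7i-5p (D630033A02Rik): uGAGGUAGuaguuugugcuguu
mmu-miR-100-5p (3110039I08Rik): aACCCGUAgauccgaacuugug
mmu-miR-99a-5p (Mir99ahg): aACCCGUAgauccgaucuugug
mmu-miR-125b-5p (3110039I08Rik and Mir99ahg): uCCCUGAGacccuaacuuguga
mmu-miR-22-3p (Mir22hg): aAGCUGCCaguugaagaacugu
The first 4 sequences share the seed AAAGUGC, the let-7 members share GAGGUAG, and miR-100 and miR-99a share ACCCGUA. The ES cell clusters themselves were barely listed: Mir290a stood at 0 and 0 TPM in MEF and 7.55 and 2.63 in R1 (not called without MEF replicate 1, adjusted p = 0.0621, or 2, 0.0617), and the others of the Mir290 and Mir302 clusters were not tested or not called. A value near 0 for a hairpin says nothing of the mature microRNA.

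Markers of further cell types were present in part. The 13 extraembryonic endoderm markers summed to 740.0 and 655 TPM in MEF and 64.6 and 67.6 in R1, with 4 of 8 tested higher and 3 lower. Nearly all of the MEF sum lay in the basement membrane genes Col4a1 (394 and 358 TPM in MEF) and Lamb1 (246 and 213) and in Dab2 (94.2 and 80.8), which fibroblasts are known to express too, while Afp and Ttr were at 0 in all 4 libraries and Sox17 at 0 in MEF and 0.556 and 1.00 TPM in R1. The 11 skeletal muscle markers summed to 73.7 and 71.4 TPM in MEF and 28 and 23.5 in R1, mostly Acta1 (55.2 and 49.3 against 13.1 and 9.64 TPM, -2.12 ± 0.19) and Des (not called), while the regulators Myod1, Myog, Myf5 and Pax7 were at 0 in all 4 libraries. Of the 8 erythroid markers 5 were at 0 in all 4, the beta globins Hbb-bs and Hbb-bt among them, and 1 was tested and not called. The keratinocyte gene Krt17 was listed at 0 and 0 TPM in MEF and 9.17 and 13.9 in R1, with Krt5 at 0 and 0.196 and Krt14 at 0.494 and 0.700 in R1. Their part in the results was not tested. Of 6 endothelial markers tested, 4 were higher in R1 and 2 lower. Pecam1 (CD31), which ES cells are known to carry, was listed at 0 and 0 TPM in MEF and 75.3 and 74.6 in R1. Kdr was lower from a low level (3.03 and 1.93 against 0 and 0.109 TPM). Cdh5 (0.0991 and 0 TPM in MEF) and Emcn (0.156 and 0 TPM in MEF) were near 0 in MEF and at 0 in R1. Of 8 neural markers tested, 5 were higher in R1, 1 lower and 2 not called. The neuronal stathmin Stmn2 stood at 4.08 and 3.79 TPM in MEF and 197 and 213 in R1 (5.38 ± 0.09). Map2 stood at 21.2 and 16.4 against 1.48 and 0.777 (-3.23 ± 0.26), while Dcx and Neurog2 were at 0 and Pax6 at 1.02 and 1.19 TPM in R1. Cdx1, a caudal homeobox gene, was listed at 0 and 0 against 41 and 49.2 TPM while Mesp1 and Evx1 were at 0 in all 4 libraries, and Tfap2c, a factor of trophectoderm and germ cells, at 0 and 0 against 28.8 and 30.5 TPM with Cdx2 at 0.445 and 0 and Elf5 at 0.331 and 0 in R1. Adipocyte genes Lpl (119.8 and 120.5 against 9.55 and 8.39 TPM) and Cebpa were lower in R1, and Adipoq and Plin1 were at 0.

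Gene class and chromosome, which the contrast did not use, were set beside the calls. Among 421 long intergenic noncoding RNAs, 22.3% were higher by at least 2 and 4.75% lower, against 9.35% and 13.9% of 13962 protein-coding genes. Processed pseudogenes were higher in 37.9% and lower in 9.04% of 1494 cases, and as near copies of other genes their reads are uncertain. Among autosomes and X, the share higher by at least 2 ran from 5.88% on chromosome 3 to 13.4% on X, and the share lower by at least 2 from 8.12% on chromosome 12 to 16% on chromosome 3. Promoters of both sets of large changes had lower CpG content than all genes tested: the median observed over expected CpG was 0.604 for genes higher by at least 2, 0.602 for genes lower and 0.735 for all tested. It was 0.780 for germline genes, 0.394 for fibroblast matrix genes and 0.269 for interferon-stimulated genes.

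More genes were listed at 0 in MEF alone than in R1 alone. Depth is unknown, and a library with fewer reads lists more zeros, so the counts do not by themselves show presence or absence. At exactly 0 in both MEF libraries and at 5 TPM or more in both R1 libraries were 449 genes, 343 of them protein coding, and the reverse held for 157 genes, 143 of them protein coding. The first set included Trap1a (0 and 0 against 314 and 288 TPM), the alkaline phosphatase gene Alpl (124 and 145 TPM in R1), whose enzyme stain marks pluripotent colonies, the meiotic gatekeeper Stra8 (98.7 and 100.1) and the germ cell factor Sohlh2 (105 and 103); the second included Mgp (159 and 189.7 TPM in MEF), Dpt (131 and 146) and Fmod (57.1 and 52.9), genes of matrix proteins. These were chosen after their values were seen. An exact 0 can be a failed estimate: 2 genes in MEF and 4 in R1 were at 0 in 1 library and at 10 TPM or more in the other library of that cell type, of 9431 and 9036 genes at that level in either library; zeros shared by both libraries cannot be checked this way.

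Not everything differed. Eef1a1, the translation elongation factor and among the most abundant genes of both cell types, stood at 11088 and 10893 TPM in MEF and 10648 and 11192 in R1 (-0.01 ± 0.15) and was not called. Rb1 (12.2 and 12.1 against 12.2 and 11.6 TPM), Cdk4 (382 and 426 against 316 and 337), Esrra (15.7 and 17.8 against 17.5 and 16.8) and Cox4i1 (568 and 657 against 567 and 614) were likewise not called. A missed threshold does not show equality, but for Eef1a1, Ctnnb1 and Igf2bp2 the difference was smaller than its SE.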

How the data were processed

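Total RNA of 2 MEF and 2 R1 libraries was sequenced, and the table used holds 8 libraries: MEF, R1, CD-iPSC and DMSP-iPSC, 2 of each. The authors deposited TPM per gene. Per the submitters' processing notes they used fastp 0.20.1, HISAT2 2.1.0 and StringTie 2.0 on mm10; neither strandedness nor the handling of multi-mapping reads is stated there. The unit TPM was read from column sums. Genes at 1 TPM or more in at least 2 of the 8 libraries were fitted on log2(TPM + 1) with limma 3.58.1 (R 4.3.3, trended eBayes, 2-sided, Benjamini-Hochberg over all 17414 genes); the 8 libraries shared an estimate of spread, and the contrast was R1 minus MEF. The fit was tested on simulated data. Gene names came from GENCODE M21 (55141 of 55401 IDs) and sequences from RefSeq (GRCm38.p6). Named genes were the leading members of each list, the 10 largest called changes in each direction with a mean of at least 5 TPM, the largest changes within each list, the 5 highest genes of each cell type, the pairs, Rxra and Exosc3; further list members were added to describe roles, and some genes of the lists are counted but not reported by name here. Members, lists and pairs were chosen with earlier results of these data known.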

Additional observations from a re-analysis of the deposited data

How the results depend on the processing

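The counts of genes called were compared under 14 alternatives: other pseudocounts, filters and scalings, fits without some genes or libraries, and a replicate block. Higher and lower counts of the 54 gene and marker lists were compared too, and some moved past a fixed ratio or to or from none. With a filter at 5 TPM 12 list counts moved, with no filter 7, with quantile normalization 6 and with a pseudocount of 0.5 TPM 1. No gene was called in opposite directions by the main fit and an alternative. Genes higher by at least 2 on the log2 scale numbered 2861 with a pseudocount of 0.1 TPM, against 1626, and genes lower by as much 2832, against 2046, so that the larger of these counts turned from the falls to the rises. Without any 1 of the 4 libraries, where the lone library of a cell type is assumed to vary like the other groups, 5331 to 5544 genes were higher and 4994 to 5153 lower. Between 50.8% and 54.4% of calls were higher in R1 over all settings. Replicate numbers of MEF and R1 did not pair the libraries (correlation of deviations 0.05), and a fit with the replicate number as a block called 6158 genes higher and 5587 lower, of which 11644 were shared with the main calls. Of 198 called genes among the 213 named by rule, 14 lost the call under some alternative: Rarg, Ptbp1, Ten1, Cyp26a1, Eng, Hmga1, Mir290a, Mki67, Tcf7l1, Cox7a1, Trim25, Myc, Gm29216 and Gm28661. The last 2 are nuclear copies of mitochondrial sequence whose reads cannot be told from their source. Depth is unknown, so low values carry no counting interval.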
